A study of Mus musculus with 56 samples.

Results

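Adipose progenitor marker genes are 10 genes chosen by name for their use as labels of stromal progenitor cells in fat: Pdgfra, Pdgfrb, Dpp4, Pi16, Cd34, Ly6a, Dlk1, Zfp423, F3 and Icam1. They were picked out of the expression table of mouse visceral adipose tissue (VAT) by matching Ensembl gene identifiers to these symbols, and all 10 were found among the 25939 genes of the table. The list was drawn up with earlier results of these data known. RNA had been sequenced from the VAT of 56 female C57BL/6J mice aged 9 weeks. All were kept on chow in 12 h of light and 12 h of darkness, with food at all hours for the first 7 days. In the nighttime-restricted feeding (NRF) group, the control, feeding was limited to the night, and in the daytime-restricted feeding (DRF) group to the day, in both cases for 7 days. No genotype or agent other than the feeding regimen set the groups apart. Tissue was taken every 4 h from zeitgeber time (ZT) 0, which is lights on, to ZT24, from 4 mice per regimen and time point, so that each regimen had 28 libraries and each of the 14 groups had 4. Each library came from a different mouse, so that p-values measure the spread between mice, and the RNA was that of whole tissue, with no cells sorted.

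White fat grows and renews itself from stromal cells that lie among the adipocytes and along the vessels. In mouse fat, a DPP4+ and PI16+ interstitial population is placed upstream of ICAM1+ committed preadipocytes, and F3+ stromal cells have been described as a population that restrains adipocyte formation. PDGFRA, CD34 and LY6A mark these stromal cells broadly, PDGFRB marks perivascular cells, and DLK1 and ZFP423 are a brake on and a driver of preadipocyte commitment. Several of these proteins also occur on endothelial, mesothelial, epithelial or immune cells of the same depot. In RNA of whole tissue, fewer cells of a type and less RNA per cell cannot be told apart.

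Expression is given below as CPM, the recovered reads of a gene divided by an effective library size that the deposited values imply (31792400 to 47300700 reads), and, where genes are compared with each other, as CPM per kilobase of exon. The effective size differs from the sum of the recovered reads of a library, which ranged from 31309506 to 41467166. Reads of a member ranged from a median of 109.5 per library for Dlk1 to 7284 for Cd34, so that counting error was larger for Dlk1 than for the other 9 genes. No 2 libraries held identical values. In a principal component analysis of log2(CPM + 1), the DRF libraries of ZT8 replicate 1 and ZT0 replicate 4 were 10.7 and 9.57 median absolute deviations away from the middle of the second component, and the next library was 2.45 away. The summed CPM of 7 epithelial markers was 598 and 5327 in these libraries, against 12.4 to 44.8 in the 28 NRF libraries. The calls that changed without them are given with both values. No member passed the test between ZT0 and ZT24 in either regimen, a comparison in which 0.154% of all genes passed under NRF and 0.0501% under DRF by limma. At an unadjusted p under 0.05, 1 member differed under NRF and 2 under DRF.

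The start regions of 8 of the 10 genes were held in the RefSeq table of GRCm38.p6 promoters. The 250 bases before the start are printed for Cd34, whose daily course differed most between regimens, for Pdgfra, which fell most, for both starts of Zfp423, the member that rose, and for Icam1. They are written 5′ to 3′ in the direction of the gene, with motif matches in capitals.
Cd34, chr1:194938571-194938820, plus strand: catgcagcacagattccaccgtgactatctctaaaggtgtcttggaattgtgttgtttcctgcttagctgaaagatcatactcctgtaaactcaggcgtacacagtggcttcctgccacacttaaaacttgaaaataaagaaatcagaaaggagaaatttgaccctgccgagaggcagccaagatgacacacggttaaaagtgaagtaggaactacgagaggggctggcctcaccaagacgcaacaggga
Pdgfra, chr5:75152001-75152250, plus strand: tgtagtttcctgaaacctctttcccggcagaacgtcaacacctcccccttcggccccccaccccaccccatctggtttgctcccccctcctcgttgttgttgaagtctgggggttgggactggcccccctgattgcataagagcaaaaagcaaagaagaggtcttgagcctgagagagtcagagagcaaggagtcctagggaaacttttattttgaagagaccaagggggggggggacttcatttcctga
Zfp423, start upstream, chr8:87959596-87959845, minus strand: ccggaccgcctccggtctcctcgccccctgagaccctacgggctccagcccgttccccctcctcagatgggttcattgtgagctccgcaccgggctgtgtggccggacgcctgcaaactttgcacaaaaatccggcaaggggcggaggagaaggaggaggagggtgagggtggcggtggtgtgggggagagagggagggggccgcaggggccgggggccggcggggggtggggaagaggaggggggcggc
Zfp423, start within the gene, chr8:87804440-87804689, minus strand: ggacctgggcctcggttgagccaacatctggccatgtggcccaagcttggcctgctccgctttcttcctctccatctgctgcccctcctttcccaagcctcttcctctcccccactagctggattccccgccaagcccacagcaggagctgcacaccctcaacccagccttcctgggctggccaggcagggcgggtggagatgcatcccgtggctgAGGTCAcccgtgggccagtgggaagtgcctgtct
Icam1, chr9:21015690-21015939, plus strand: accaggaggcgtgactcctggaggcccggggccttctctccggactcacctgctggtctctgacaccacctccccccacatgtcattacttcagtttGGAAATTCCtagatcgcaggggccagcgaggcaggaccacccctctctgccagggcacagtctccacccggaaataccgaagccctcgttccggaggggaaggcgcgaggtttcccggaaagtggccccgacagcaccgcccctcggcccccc
Both strands of the 300-base windows, 250 bases before to 50 after the start, were searched for CACGTG (the E-box), TTATGTAA and TTACGTAA (D-box), AGGTCA (the nuclear receptor element), AGAACA (the glucocorticoid receptor element), and GGACTTTCC and GGAATTTCC (NF-κB). The capitals of Icam1 are GGAATTTCC read on the other strand, 153 bases before the start, a motif that 0.317% of all 32851 windows held. The start of Zfp423 within the gene had AGGTCA at 34 bases before it, a motif in 16.3% of windows. AGAACA, held by 19.0% of windows, was found 203 bases before the start of Dpp4 and 27 bases before that of Pi16. None of these letters occurred in the windows of Cd34, Pdgfra, F3, Dlk1 and the upstream start of Zfp423. The window of Cd34 held no CACGTG, which 7.15% of windows held. Base composition differed widely, from 43.6% G or C in the 250 bases of Dpp4 and 46.4% in those of Cd34 to 71.6% in those of the upstream start of Zfp423, against a median of 52.4% over all windows.

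In GENCODE annotation of GRCm38, the build of the files, Cd34 lies at chr1:194938819-194961279 and Pdgfra at chr5:75152292-75198215, both on the plus strand. Of the other genes on the plus strand, F3 lies at chr3:121723537-121735048, Icam1 at chr9:21015985-21028817, Dlk1 at chr12:109452823-109463336, Pi16 at chr17:29317680-29330593 and Pdgfrb at chr18:61045150-61085061. On the minus strand, Dpp4 lies at chr2:62330073-62412231, Zfp423 at chr8:87661810-87959595 and Ly6a at chr15:74994877-74998031. All are annotated as protein coding, and reads were summed over their exons.

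The order of the 10 genes by level was the same under both regimens. Ly6a, which encodes a GPI-anchored surface antigen of stem and progenitor cells, was highest, at 95.3 ± 13.9 CPM per kb under NRF and 84.6 ± 32.6 under DRF (mean ± SD, n = 28). Pi16, a peptidase inhibitor of fibroblasts, followed at 32.2 ± 8.0 and 28.6 ± 7.31, and Cd34, a sialomucin of progenitor and endothelial surfaces, at 28.7 ± 4.44 and 24.6 ± 4.74. F3, which encodes tissue factor, the starter of the clotting cascade, stood at 19.4 ± 3.23 under NRF. Pdgfrb at 13.0 ± 1.51, Dpp4 at 11.9 ± 2.39 and Pdgfra at 10.8 ± 2.10 came next under NRF. Zfp423 at 5.22 ± 1.16, Icam1 at 3.67 ± 0.602 and Dlk1 at 0.583 ± 0.161 were the lowest. Reads of Ly6a may be shared with near-identical genes of its family, so that its level is less certain. In percentile of all tested genes under NRF, Ly6a stood at 98.4 and Dlk1 at 46.9. Neighbours whose ranges of mean ± SD on the log2 scale overlapped under NRF were Pi16 and Cd34, Pdgfrb and Dpp4, Dpp4 and Pdgfra, and Zfp423 and Icam1. Under DRF the ranges of Cd34 and F3, of F3 and Pdgfrb and of Pdgfra and Zfp423 overlapped in addition, while those of Zfp423 and Icam1 did not.

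**Figure D1:**
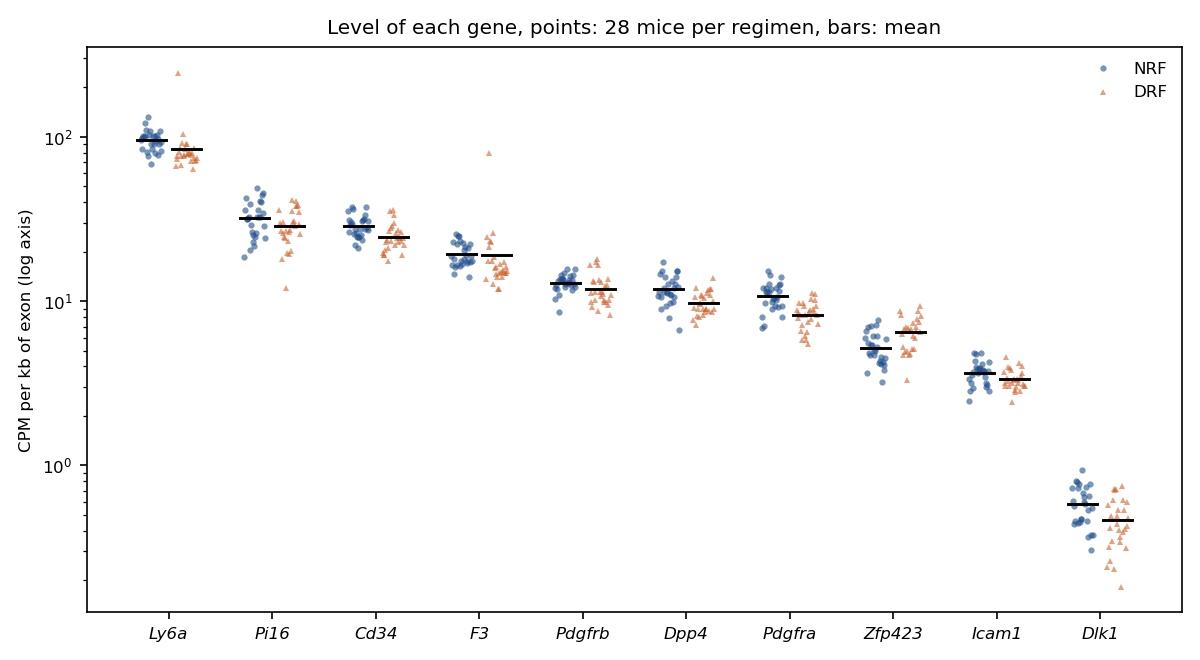
Level of each progenitor marker gene in CPM per kilobase of exon on a log axis, 1 point per mouse, 28 mice each under NRF (blue circles) and DRF (orange triangles), with bars at the mean. Ly6a is highest and Dlk1 lowest under both regimens, and single DRF points stand far above the rest for Ly6a and F3.

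The first question was whether the mean level over the day differed between regimens. Of the 10 genes, 5 fell under DRF (Pdgfra, Cd34, Dpp4, Dlk1 and Icam1) and Zfp423 rose, by limma with adjustment over 25938 genes. Among all genes 21.7% passed this test, 10.3% lower and 11.4% higher, and among the 14303 genes with a mean of at least 1 CPM, as all members had, 33.5% passed, 15.7% lower and 17.8% higher. The median log2 difference of the members was −0.18, beside −0.00036 over all genes. Ly6a, Pi16, F3 and Pdgfrb had negative differences that did not pass. The difference is that of the regimen terms of a model with a 24-h cosine for each regimen, on the log2(CPM + 1) scale.

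Pdgfra, the receptor tyrosine kinase of platelet-derived growth factors that labels most stromal progenitors, fell the most. Over the 28 mice it ranged from 68.3 to 152 CPM with a median of 109 under NRF and from 55.2 to 112 with a median of 84.1 under DRF. Thus 26 of 28 DRF mice lay below the NRF median, although the ranges overlapped. The log2 difference was −0.41 (SE 0.07, adjusted p = 1.01e-05), or 24.9% lower. It passed without any single library, with a difference between −0.44 and −0.39. By time point, Pdgfra was lower under DRF in 6 of 7 comparisons of the means and passed at ZT4, ZT8 and ZT12. At ZT4 the NRF mice had 97.5, 113, 114 and 121 CPM and the DRF mice 58.3, 66.1, 71.6 and 82.9. At ZT8 they had 114, 127, 144 and 152 under NRF and 61.4, 82.2, 93.0 and 97.7 under DRF, and at ZT12 89.7, 98.5, 103 and 119 under NRF and 55.2, 58.2, 64.9 and 75.0 under DRF. In each of these 3 comparisons every DRF mouse lay below every NRF mouse, which held for 17.4% of all gene and time point pairs in either direction. The log2 differences were −0.67, −0.69 and −0.69 (limma adjusted p = 0.00142, 0.00129 and 0.00133). At ZT0, where NRF mice had 68.3, 70.6, 79.8 and 120.5 CPM and DRF mice 79.5, 85.3, 88.8 and 97.7, the groups overlapped and the difference was 0.08. At ZT24, the same hour a day later, the NRF mice had 80.1, 93.2, 128 and 141 CPM and the DRF mice 72.9, 82.8, 94.2 and 102, and the difference was −0.30 (adjusted p = 0.236). Within NRF the log2 difference of ZT24 from ZT0 was 0.38 and did not pass (adjusted p = 0.444).

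Over all 70 pairs of a member and a time point, 11 passed, 8 of them lower under DRF, all from Pdgfra, Cd34, Dpp4 and Zfp423, while 13.9% of such pairs passed over all genes (6.51% lower, 7.34% higher). By time point, 1 member passed at ZT0 (10.5% of all genes), 3 at ZT4 (19.5%), 1 at ZT8 (16.5%), 2 at ZT12 (16.1%), 2 at ZT20 (13.1%) and 2 at ZT24 (11.3%). No member passed limma's test at ZT16, where 9.97% of all genes did, and 2 members had an unadjusted p under 0.05 there. Without the 2 DRF libraries that stood apart 16 pairs passed, the added ones being Ly6a at ZT0 and ZT4, F3 at ZT8 and ZT16 and Icam1 at ZT8, each lower under DRF, and 17% of such pairs passed over all genes in that fit. Their log2 differences with all libraries and without the 2 were 0.05 and −0.39 for Ly6a at ZT0 (adjusted p = 0.0485 without them) and −0.48 in both fits for Ly6a at ZT4 (0.00353). For F3 they were −0.42 and −0.60 at ZT8 (0.00517) and −0.43 in both fits at ZT16 (0.0416). For Icam1 at ZT8 they were −0.34 and −0.42 (0.0209).

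**Figure D2:**
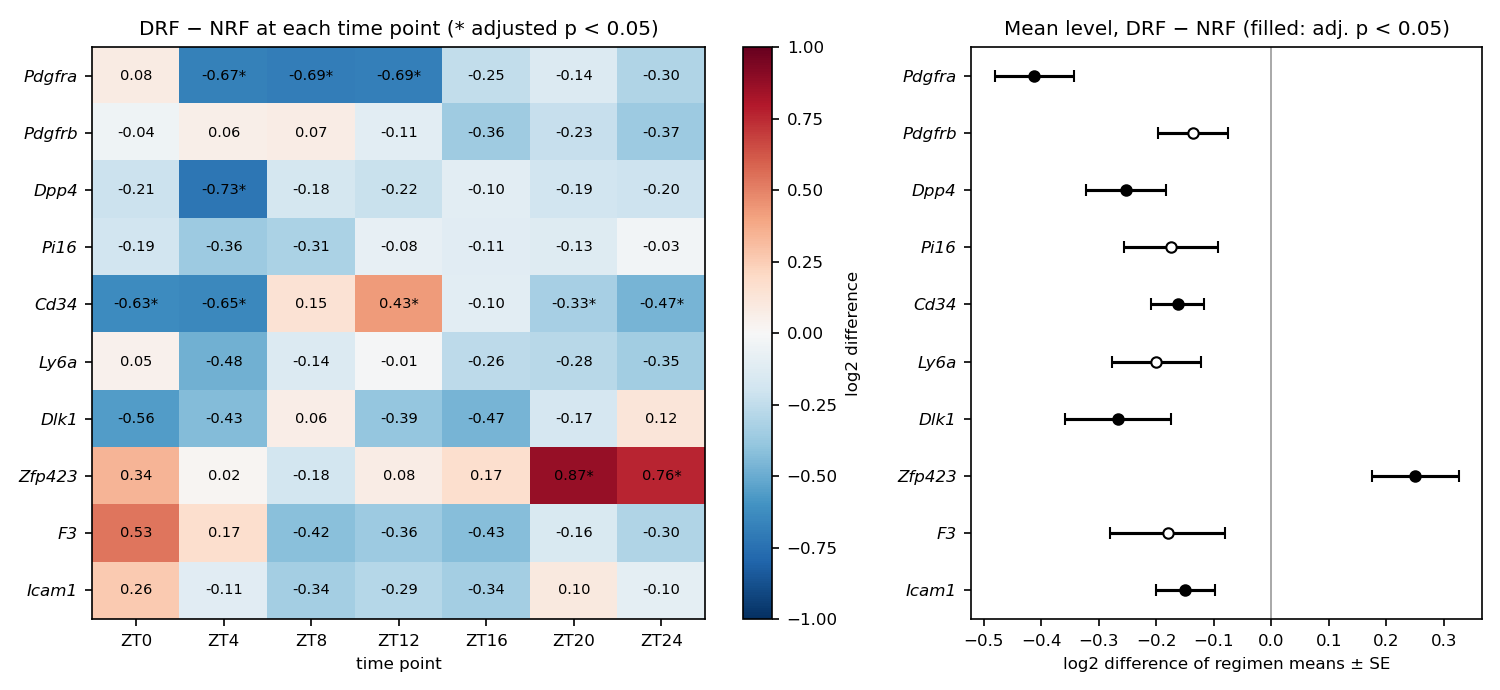
Left, log2 difference DRF minus NRF of each gene at each time point (red higher, blue lower under DRF, asterisk for a limma adjusted p below the 0.05 threshold). Right, log2 difference of the mean level with its standard error, filled where the adjusted p passed. Pdgfra is the lowest at −0.41, Zfp423 is the only gene above 0, and Cd34 changes sign between ZT4 and ZT12.

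Dpp4, a surface peptidase that marks the interstitial progenitors, ranged from 42.1 to 109 CPM under NRF (median 72.1) and from 45.4 to 86.9 under DRF (median 59.0). Its mean was lower under DRF at all 7 time points, and the log2 difference in mean level was −0.25 (SE 0.07, adjusted p = 0.0058). At ZT4 the NRF mice had 67.2, 72.1, 96.0 and 109 CPM and the DRF mice 45.4, 50.2, 51.1 and 56.2. The groups did not overlap there, and the difference of −0.73 passed (SE 0.18, adjusted p = 0.00334), the only time point at which Dpp4 did. Both calls held without any single library. The mean-level call was lost without all 14 mice of replicate number 1 (−0.20, adjusted p = 0.089) or 2 (−0.19, adjusted p = 0.147), and the ZT4 call without number 2 (adjusted p = 0.0528). No 24-h rhythm of Dpp4 was detected under either regimen (combined rhythm test, adjusted p = 1 for both). Mesothelial markers fell as well: 3 of 6 passed lower, beside 15.7% of genes of at least 1 CPM, and their median difference was −0.25. Their mean levels were 28.2 CPM or more in each regimen, and their summed CPM was 247 to 671 under NRF and 206 to 614 under DRF. After removal of the 14 group means, Dpp4 followed that sum from mouse to mouse with r = 0.80 (n = 56 libraries). Its correlations with the summed lymphocyte (0.51), ovary (0.49), macrophage (0.41) and endothelial (−0.55) markers were smaller in size. The part of these cell types in the fall of Dpp4 was not tested.

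Dlk1, a transmembrane protein that restrains adipocyte formation, was the least abundant member, at 3.30 ± 0.910 CPM under NRF and 2.62 ± 0.895 under DRF (SD, n = 28). It ranged from 1.72 to 5.29 CPM under NRF and from 1.03 to 4.23 under DRF. The log2 difference was −0.27 (SE 0.09, adjusted p = 0.03), and no single time point passed. The call was lost without NRF ZT12 replicate 2 (adjusted p = 0.0544), without DRF ZT16 replicate 3 (0.0573), without the 2 DRF libraries that stood apart (−0.22, adjusted p = 0.0571) and after quantile normalization (−0.25, adjusted p = 0.0722). It was also lost without replicate number 1 (adjusted p = 0.108), 2 (0.0866) or 3 (0.163). The 4 DRF mice at ZT8 had 1.32, 3.99, 4.05 and 4.06 CPM, the lowest of them being one of those libraries. Dlk1 too followed the mesothelial sum after removal of group means, with r = 0.55 over 56 libraries and 0.64 over the 54 without those 2. Its correlations with the summed macrophage (0.52), adipocyte (0.51) and lymphocyte (0.50) markers were of like size over the 56 libraries. Over the 54 libraries they were 0.40, 0.28 and 0.47, in that order, each below the mesothelial value of 0.64.

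Zfp423, a zinc-finger transcription factor of committed preadipocytes, moved the other way. It ranged from 18.0 to 43.1 CPM under NRF (median 28.1) and from 18.6 to 52.2 under DRF (median 36.9), and 22 of 28 DRF mice were above the NRF median. The log2 difference was 0.25 (SE 0.08, adjusted p = 0.0118) and passed without any single library, but not when the ZT24 groups were left out (0.22, adjusted p = 0.0556), nor without all mice of replicate number 2 (0.24, adjusted p = 0.0626) or 3 (0.19, adjusted p = 0.109). At ZT20 the NRF mice had 18.0, 23.2, 23.8 and 25.5 CPM and the DRF mice 36.9, 39.2, 43.5 and 48.7. At ZT24 the NRF mice had 21.5, 23.0, 25.2 and 32.9 CPM and the DRF mice 36.6, 41.8, 45.5 and 52.2. Neither pair of groups overlapped, and the differences were 0.87 (SE 0.20, adjusted p = 0.00151) and 0.76 (SE 0.20, adjusted p = 0.00734), or 1.83-fold and 1.70-fold higher. At ZT0, the same hour of the day as ZT24, the NRF mice had 20.5, 31.4, 33.4 and 36.8 CPM and the DRF mice 26.3, 35.3, 46.3 and 48.8. The groups overlapped there, and the difference of 0.34 did not pass (SE 0.20, adjusted p = 0.29). From ZT4 to ZT16 the groups overlapped and the differences lay between −0.18 and 0.17. The DRF mice at 26.3 CPM at ZT0 and at 18.6 CPM at ZT8 were the 2 libraries that stood apart. Without both, the limma difference was 0.52 at ZT0 (adjusted p = 0.0795) and −0.01 at ZT8. In mean level it was 0.30 in that fit (adjusted p = 0.000879). Its paralogue Zfp521, a zinc-finger protein that opposes adipocyte commitment, fell from 19.0 ± 2.04 to 14.5 ± 2.23 CPM (SD, n = 28; log2 difference −0.37, adjusted p = 4.04e-08). After removal of group means, Zfp423 ran against Pdgfra from mouse to mouse (r = −0.60, 56 libraries), the lowest of the 45 pairs of members.

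In Ly6a and F3, 1 DRF mouse stood far above the rest. Ly6a ranged from 82.0 to 159 CPM under NRF and from 76.5 to 296 under DRF, yet 26 of 28 DRF mice were below the NRF median. The mice at ZT0 under DRF had 80.0, 88.6, 91.5 and 296 CPM, and those under NRF 102, 115, 118 and 123. With all libraries the log2 difference in mean level was −0.20 (SE 0.08, adjusted p = 0.0547), just short of the threshold. Without DRF ZT0 replicate 4 it was −0.25 and passed (adjusted p = 5.04e-05), as it did without both libraries that stood apart (−0.25, adjusted p = 3.24e-05). It also passed without any 1 of 8 other libraries (NRF ZT0, ZT20 and ZT24 replicate 3, NRF ZT8 replicates 1 and 3, NRF ZT12 replicate 2, DRF ZT8 replicates 1 and 2), at adjusted p from 0.0326 to 0.0498, and with tests limited to genes of at least 1 CPM (0.0348). F3 ranged from 35.2 to 64.9 CPM under NRF and from 29.8 to 201 under DRF. The DRF mice at ZT0 had 34.2, 44.5, 62.3 and 201 CPM and the NRF mice 36.9, 42.1, 47.5 and 58.0, so that 1 DRF mouse stood far above the other 7. The difference of F3 was −0.18 (SE 0.10, adjusted p = 0.209) with all libraries, −0.24 without that mouse (adjusted p = 0.00361) and −0.27 without both libraries that stood apart (adjusted p = 0.000629), a fit in which 28.9% of all genes passed. Epithelial markers were high in the same library, and the correlation of F3 with their sum after removal of group means was 0.83 over 56 libraries and 0.32 over the 54 without both libraries that stood apart. For Ly6a these values were 0.73 and 0.20. The part of epithelial RNA in the values of this library was not tested.

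Pdgfrb, the receptor of perivascular cells, ranged from 47.3 to 85.9 CPM under NRF and from 44.9 to 98.3 under DRF, with a log2 difference of −0.14 (SE 0.06, adjusted p = 0.108). Of the single libraries, only leaving out DRF ZT0 replicate 1 made it pass (adjusted p = 0.0484). At ZT8 the DRF mice had 47.6, 90.3, 94.9 and 98.3 CPM and the NRF mice 74.5, 74.8, 75.0 and 78.5, so that 3 DRF mice lay above all NRF mice and 1 far below them. After removal of group means, Pdgfrb had r = 0.74 with the summed endothelial markers over 56 libraries, and 0.83 without the 2 libraries. With the summed mural markers r was 0.36, and 0.39 without the 2 libraries. Pdgfrb ran against the mesothelial sum (r = −0.63). A sum of CPM is weighted towards its most abundant genes. Kcnj8, 1 of the 10 mural genes, was among the genes most like Pdgfrb (r = 0.75 with group differences left in). Pi16 differed by −0.17 (SE 0.08, adjusted p = 0.128) and was lower under DRF at all 7 time points. It passed without NRF ZT0 replicate 1 (adjusted p = 0.048) and after quantile normalization (−0.23, adjusted p = 0.034).

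**Figure D3:**
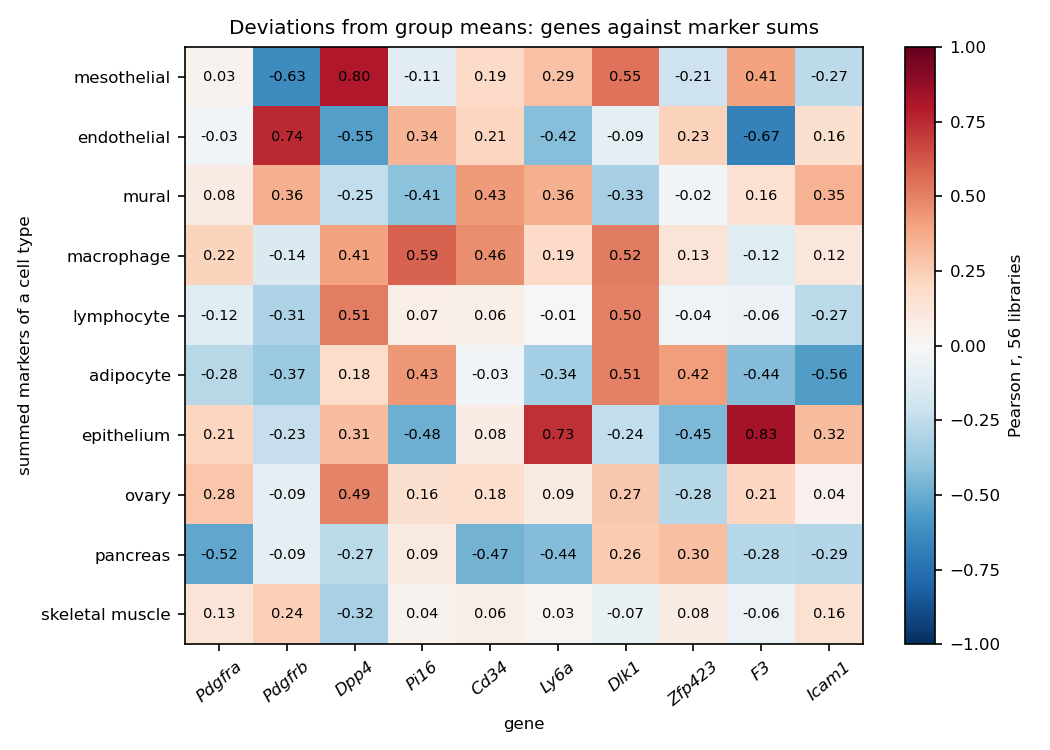
Pearson correlation, over 56 libraries after removal of the 14 group means, of each gene (columns) with the summed CPM of markers of other cell types (rows), red positive and blue negative. Dpp4 follows mesothelial markers (0.80) and Pdgfrb endothelial ones (0.74), while the values for F3 (0.83) and Ly6a (0.73) with epithelial markers fall to 0.32 and 0.20 without 2 libraries.

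The second question was how each gene changed over the day. By the combined JTK_CYCLE and Lomb-Scargle test, Cd34 and Icam1 had a 24-h rhythm under NRF (26.2% of all genes did) and Cd34 and Pi16 under DRF (14.6%). Cd34 was the only member to pass under both regimens, as 8.96% of all genes did. By the limma test over the 7 group means, which needs no cosine shape, Cd34, Pi16, Pdgfra and Icam1 varied with time under NRF, where 27.6% of all genes passed, and Cd34, Pi16, Pdgfra and F3 under DRF, where 28.2% passed. Among genes of at least 1 CPM those shares were 42.9% and 43.4%. The courses of Pdgfrb, Dpp4, Ly6a, Dlk1 and Zfp423 passed in neither regimen. A limma test of the 24-h cosine alone called 3 members under NRF and 5 under DRF, beside 33.7% and 26.7% of all genes.

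**Figure D4:**
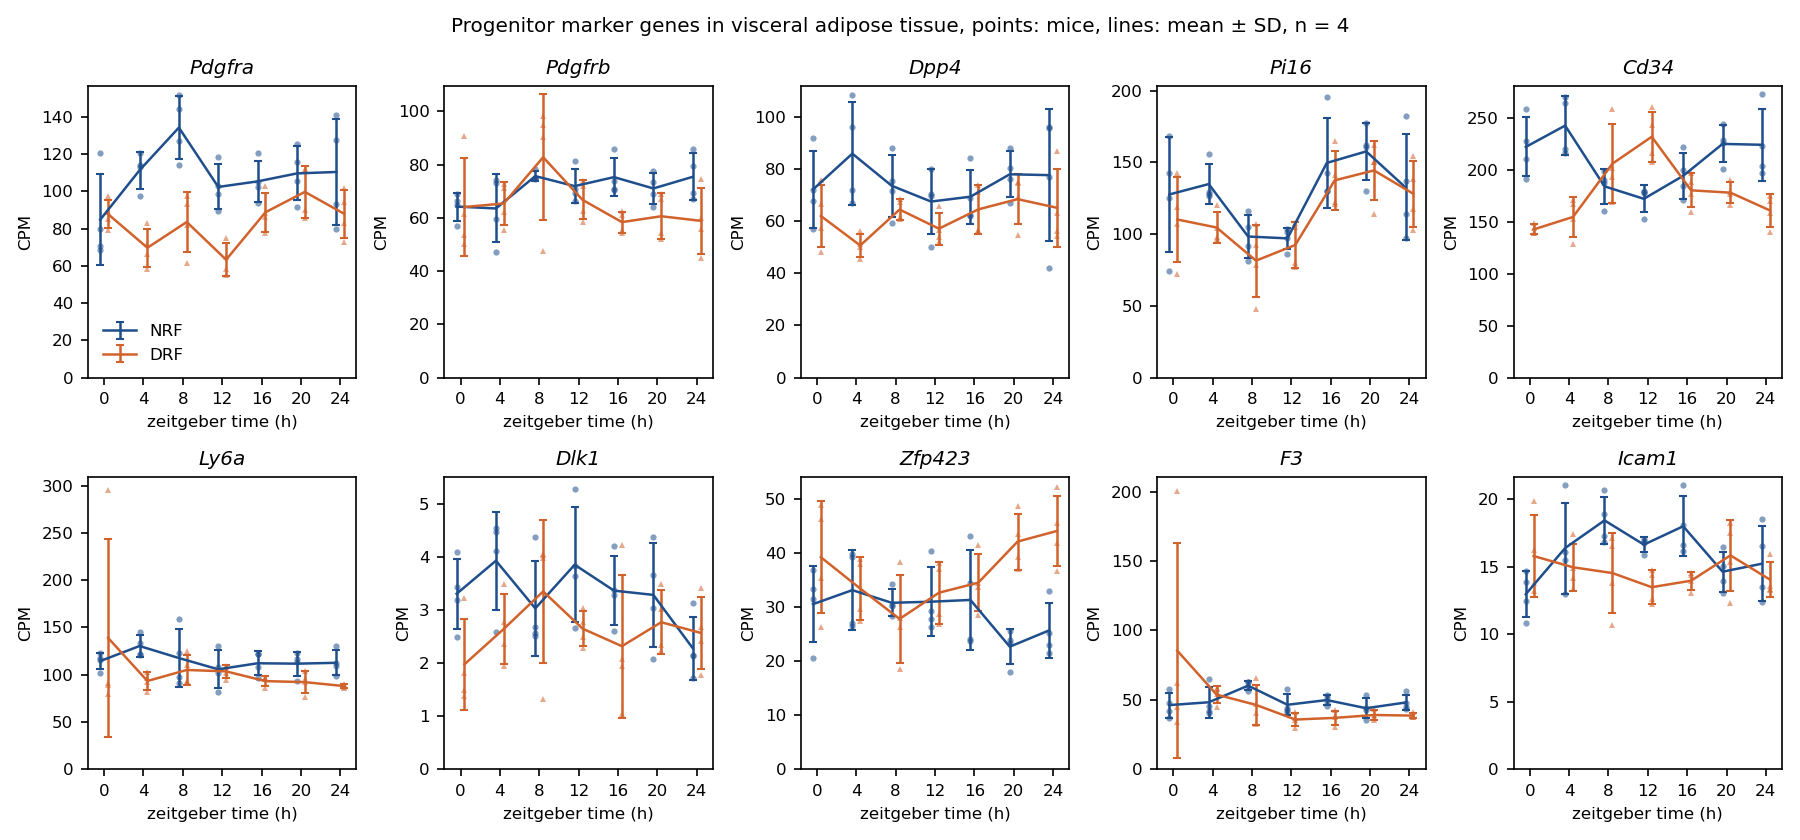
CPM of each gene over zeitgeber time, 1 point per mouse, with lines for the mean and bars for the SD of 4 mice, NRF in blue and DRF in orange, slightly offset. Cd34 is high around lights on under NRF and around ZT12 under DRF, Pi16 is highest at ZT20 in both, and the wide bars at ZT0 under DRF for Ly6a and F3 come from 1 mouse.

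The course of Cd34 over the day was opposite under the 2 regimens. Under NRF its 4 mice had 216, 220.1, 264 and 271 CPM at ZT4, where the mean was highest, and 153, 178, 179 and 179 at ZT12, where it was lowest. Under DRF the mice had 208, 216, 244 and 260.4 CPM at ZT12, where the mean was highest, and 139, 139, 144 and 149 at ZT0, where it was lowest. These groups are the extremes of 7 means, so that their distance is a description. The fitted 24-h cosine peaked at ZT 0.16 ± 0.92 under NRF and ZT 12.1 ± 0.72 under DRF (SE), a shift of 12.0 ± 1.17 h, with amplitudes of 0.20 ± 0.04 and 0.27 ± 0.04 log2 units. Across the fit the peak was 1.32 times the trough under NRF and 1.45 times under DRF. The rhythms differed between regimens (limma F test, adjusted p = 5.1e-08), where 36% of all genes passed, and 53.4% of those of at least 1 CPM. The adjusted p of that difference stayed at or below 2.25e-07 without any single library.

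The turned course made the sign of the Cd34 difference depend on the hour. At ZT0 the NRF mice had 192, 211, 228 and 258 CPM, all above the DRF mice, and the log2 difference was −0.63 (SE 0.11, adjusted p = 0.000123). At ZT4, where the DRF mice had 128, 153, 167 and 171 CPM, the groups did not overlap and the difference was −0.65 (adjusted p = 3.4e-05). At ZT12 all DRF mice were above all NRF mice, by 0.43 (adjusted p = 0.0053). The differences at ZT8 and ZT16, 0.15 and −0.10, did not pass. At ZT24, which repeats ZT0 a day later in other mice, the NRF mice had 197, 204, 223 and 274 CPM and the DRF mice 140.0, 159, 170.3 and 175, again apart, with a difference of −0.47 (adjusted p = 0.00349). The difference at ZT20 was −0.33 (adjusted p = 0.0367). That call was lost without any 1 of 6 of its 8 libraries (NRF replicates 1, 2 and 4 and DRF replicates 1, 2 and 3), at adjusted p from 0.0673 to 0.112. The call at ZT12 was lost without replicate number 2 (0.31, adjusted p = 0.123). Averaged over the day the difference was −0.16 (SE 0.05, adjusted p = 0.00731), a call lost without replicate number 1 (−0.12, adjusted p = 0.132). The combined rhythm test gave Cd34 an adjusted p of 0.0289 under NRF and 0.000311 under DRF. The NRF call was lost without any 1 of 13 libraries, namely ZT0, replicates 1 and 2, all 4 at ZT8 and at ZT12, ZT16, replicates 1 and 2, and ZT24 replicate 1, with adjusted p up to 0.137, and without replicate number 1 (0.846) or 2 (0.669), whereas the DRF call held without any single library and was lost without replicate number 2 (0.067). The limma test of the time course under NRF passed without any single library (adjusted p up to 0.0118).

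Pi16 peaked at like hours under both regimens. Under NRF its mean was lowest at ZT12, with 86.3, 97.4, 101 and 103 CPM, and highest at ZT20, with 129.8, 161, 162 and 177. Under DRF it was lowest at ZT8, with 48.0, 78.5, 92.6 and 107 CPM, and highest at ZT20, with 114, 150.4, 151 and 162. The mouse at 48.0 CPM, which lowers the ZT8 mean, was DRF ZT8 replicate 1, 1 of the 2 libraries that stood apart. Without both, the DRF group means spanned 0.64 log2 units instead of 0.86, and the limma time course still passed (adjusted p = 0.0132). The fitted peaks were ZT 20.4 ± 1.10 under NRF and ZT 19.7 ± 0.76 under DRF (SE), so that the shift was −0.70 ± 1.34 h. Amplitudes were 0.29 ± 0.09 and 0.40 ± 0.09 log2 units, the largest of the 10 genes in each regimen. Without both libraries that stood apart the DRF amplitude was 0.35. No difference in rhythm between regimens was detected (adjusted p = 0.728). The time course passed under NRF (adjusted p = 0.0303) and DRF (0.00618), the latter not without replicate number 3 (0.0715). The NRF call was lost without any 1 of ZT8 replicates 1 and 4, ZT12 replicate 2 and ZT20 replicates 2, 3 and 4 (adjusted p up to 0.0718), and without replicate number 2, 3 or 4 (0.129 to 0.152). In the combined rhythm test Pi16 had an adjusted p of 0.0636 under NRF, which passed without any 1 of 5 NRF libraries (ZT0 replicates 1 and 4 and ZT4, ZT16 or ZT24 in replicates 4, 1 and 4, in that order). Pi16 also passed under NRF without the ZT24 group (0.017), without replicate number 1 (0.0402) and among genes of at least 1 CPM (0.0402). Under DRF it had 0.0241, which was lost without any 1 of 7 libraries (ZT8 replicates 1 and 3, ZT16 replicates 1 and 2, ZT20 replicates 2, 3 and 4; adjusted p up to 0.0874), without the ZT24 group (0.0508) and without each of the 4 replicate numbers (0.0647 to 0.499).

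Icam1, an adhesion molecule of committed preadipocytes and activated endothelium, had a course under NRF with 10.8, 12.4, 13.9 and 14.7 CPM at ZT0, where its mean was lowest, and 16.8, 17.2, 18.9 and 20.7 at ZT8, where it was highest. Under DRF the group means spanned 0.21 log2 units, from ZT12 with 12.2, 12.6, 14.4 and 14.7 CPM to ZT20 with 12.3, 15.4, 17.5 and 18.2. The fitted amplitude was 0.17 ± 0.05 log2 units with a peak at ZT 10.9 ± 1.2 under NRF, and 0.07 ± 0.05 under DRF (SE), where the peak time is poorly determined. The rhythms differed between regimens (adjusted p = 0.0128), and this passed without any single library but not without replicate number 1 (0.0705) or 3 (0.118). The mean level was lower under DRF by −0.15 (SE 0.05, adjusted p = 0.0274), a call lost without NRF ZT16 replicate 1 (0.0509), without DRF ZT8 replicate 3 (0.0505) and without the ZT24 groups (−0.12, adjusted p = 0.113). It was also lost without replicate number 2, 3 or 4 (adjusted p from 0.0909 to 0.134). The combined rhythm test under NRF gave 0.0316, lost without any 1 of 12 libraries (ZT0 replicates 1, 3 and 4, ZT4 replicates 1 and 3, ZT8 replicate 2, ZT16 replicates 3 and 4, ZT20 replicates 2 and 4, ZT24 replicates 1 and 3; adjusted p up to 0.106) and without replicate number 1, 2 or 3 (0.146 to 0.679). The time course under NRF had an adjusted p of 0.0381, lost without any 1 of 8 libraries (ZT0 replicates 1 and 3, ZT8, ZT16 replicates 1 and 2 at each, ZT20 replicates 3 and 4; up to 0.129) and without replicate number 1, 2 or 3 (0.0912 to 0.319).

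Pdgfra and Zfp423 also differed in rhythm between regimens. Pdgfra had a fitted peak at ZT 8.88 ± 1.97 under NRF, where no 24-h rhythm was detected, and ZT 20.5 ± 1.10 under DRF (SE), with amplitudes of 0.15 ± 0.08 and 0.22 ± 0.07 log2 units and an adjusted p of 0.00716 for the difference. Its lowest DRF means were at ZT4 and ZT12 and its highest at ZT20, with 85.8, 89.8, 111 and 112 CPM. The time course of Pdgfra under NRF (adjusted p = 0.0318) was lost without any 1 of ZT0 replicates 1, 2 and 4 and ZT8 replicates 1 and 4 (up to 0.13) or without replicate number 1, 2 or 4 (up to 0.273), and that under DRF (0.012) held without any single library but not without replicate number 1, 2 or 4 (up to 0.168). Its combined rhythm test under DRF did not pass (0.0974), but did without DRF ZT8 replicate 2 (0.014) or 4 (0.0322). For Zfp423 the fitted peak was ZT 8.14 ± 1.64 under NRF, where no test detected a rhythm (cosine, adjusted p = 0.161) and the highest mean was at ZT4, and ZT 21.2 ± 1.00 under DRF, with amplitudes of 0.18 ± 0.08 and 0.29 ± 0.07 and an adjusted p of 0.00153 for the difference. Both differences passed without any single library, and that of Pdgfra was lost without replicate number 4 (0.086). The DRF time course of Zfp423 did not pass (adjusted p = 0.0666), but did without DRF ZT0 replicate 4, DRF ZT8 replicate 3 or NRF ZT0 replicate 3 (down to 0.0184). Its combined rhythm test under DRF, at 0.234, passed without DRF ZT0 replicate 4 (0.0266).

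F3 had a time course under DRF (adjusted p = 0.0307), with 29.8, 35.2, 37.1 and 40.8 CPM at ZT12, where its mean was lowest. The range of its DRF group means was 0.88 log2 units with all libraries and 0.58 without the 2 that stood apart, when it still passed (adjusted p = 0.0205). The call was lost without DRF ZT0 replicate 2 (0.0521), and without replicate number 2, 3 or 4 (up to 0.23). At ZT8 without those libraries F3 was lower under DRF by −0.60 (adjusted p = 0.00517), against 56.4, 58.9, 62.6 and 62.7 CPM under NRF. Ly6a did not pass the combined rhythm test under DRF with all libraries (adjusted p = 0.546), but did without the 2 libraries (0.0138) or without DRF ZT0 replicate 4 alone (0.0329). Pdgfrb passed the DRF time course (adjusted p = 0.00334) and the difference in rhythm (0.0382) only without DRF ZT8 replicate 3, the mouse that stood below its group, and not with it (0.208 and 0.173).

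**Figure D5:**
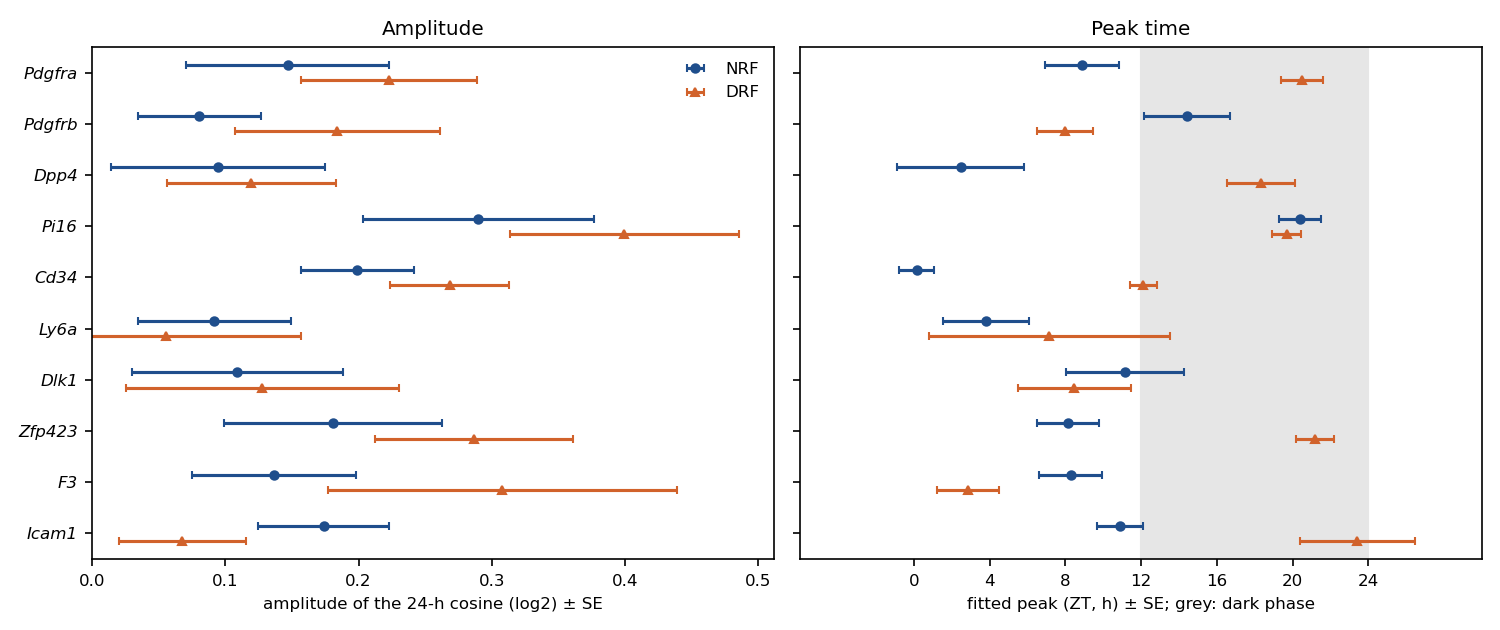
Amplitude in log2 units (left) and peak time (right) of a 24-h cosine fitted to each gene under NRF (blue circles) and DRF (orange triangles), with standard errors, the dark phase in grey. Cd34 peaks near ZT0 under NRF and near ZT12 under DRF, Pi16 near ZT20 in both, and peak times with wide bars belong to small amplitudes.

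Other genes of the same cells and pathways were described by lists. Of 83 genes in 7 lists, 29 differed in mean level, 24 of them lower under DRF, with a median log2 difference of −0.08 over the 83. That is 34.9% of them, near the 33.5% of genes of at least 1 CPM (15.7% lower, 17.8% higher) that passed, and 80 of the 83 had at least 1 CPM. The same shares are the background of each list below. Among 16 genes of fibroblast-like stroma 7 fell and 1 rose, with a median of −0.14. Lum, a collagen-binding proteoglycan, fell by 0.61 on the log2 scale (SE 0.09, adjusted p = 1.87e-06), and Mmp2, a matrix metalloproteinase, fell by 0.67 (SE 0.09, adjusted p = 8.35e-08). Of 11 other genes of DPP4+ interstitial progenitors only Efhd1 (−0.27) and Limch1 (−0.15) passed, both lower. Of 12 genes of ICAM1+ preadipocytes 3 fell and 2 rose: Igf1, the growth factor, fell from 403 ± 97.6 to 275 ± 70.0 CPM (SD, n = 28), and Col4a2, a basement membrane collagen, rose from 673 ± 128 to 826 ± 154. Of 7 genes of F3+ stroma 3 fell, among them Vit (−0.37) and Mgp (−0.33), an inhibitor of calcification. Of 10 mural genes 2 fell, Tagln (−0.31) among them, and Cspg4, the NG2 proteoglycan of pericytes, rose (0.40). Of 14 regulators of adipocyte commitment 4 fell and 1 rose, Wisp2, a secreted WNT target, from 29.3 ± 25.4 to 43.3 ± 19.1 CPM. Of 13 ligands and partners 3 fell, among them Cxcl12 (−0.44), a chemokine of stroma, and Pdgfd (−0.28), a ligand of PDGFRB. Macrophage markers fell in 3 of 6 cases, with a summed CPM of 512 to 910 under NRF and 378 to 748 under DRF. None of the 6 lymphocyte markers passed.

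In rhythm, 39 of the 83 genes (47.0%) differed between regimens, above the 36% of all genes and below the 53.4% of genes of at least 1 CPM. The size of the difference, given as the amplitude in log2 units of the cosine that separates the regimens, was 0.47 for Cd34. In the stromal list it was 0.71 for Cd44, the hyaluronan receptor, and 0.49 for Thy1, a surface glycoprotein of fibroblasts. In the interstitial list 7 of 11 genes differed, among them Dact2 (0.83) and Sema3c (0.49), a secreted semaphorin. In the preadipocyte list Col15a1 (0.60) and Igf1 (0.58) led, and in the F3+ list Fmo2 (0.40) and Abcg1 (0.40), a sterol exporter. Cspg4 (0.94) and Mcam (0.72), surface proteins of pericytes, led the mural list. Among the regulators Wisp2 differed by 1.46 (adjusted p = 0.0218), and Cebpa, the adipocyte transcription factor, differed by 0.80 with no difference in mean level detected (adjusted p = 0.577). Among ligands and partners Notch1 (0.49) and Pdgfb (0.47), a ligand of both PDGF receptors, differed most.

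Between members, the 45 correlations of deviations from group means over 56 libraries had a median of 0.13, and 29 were above 0. The highest was that of Ly6a and F3 (0.63), both high in the library described above. Without both libraries that stood apart, the value for Ly6a and F3 was 0.003. In those libraries Pdgfrb and Icam1 (0.57), Cd34 and Ly6a (0.54) and Pdgfra and Pi16 (0.52) were highest, and Pdgfra and Zfp423 remained lowest (−0.57), over the 54 left. All pairs share libraries, and the correlations are given with no test. Over the 56 libraries with group differences left in, the genes whose log2(CPM + 1) was most like that of a member were Ecm2 (r = 0.856), Mill2 (0.812) and Ciita (0.774) for Pdgfra. For Dpp4 they were Hacd4 (0.888), Twsg1 (0.859) and Ccbe1 (0.841), and for Cd34 Gas6 (0.809), Kdelc2 (0.786) and Fcrls (0.780). For Zfp423 they were Fgfrl1 (0.774), Fzd4 (0.756) and Fgf13 (0.750), and for Pi16 Gfpt2 (0.707), Scara5 (0.700) and Cd209d (0.686). Pdgfrb was most like Gucy1b1 (0.800), Tmem44 (0.756) and Kcnj8 (0.750), and Ly6a most like Zbp1 (0.861), Ly6e (0.834) and Clic1 (0.834). F3 was nearest to Scmh1 (0.792), Plac8 (0.786) and Smox (0.783), Dlk1 to 1500015O10Rik (0.72), Ecm1 (0.713) and Upk3b (0.691), and Icam1 to Slc25a45 (0.705), Pik3ap1 (0.676) and Itgb4 (0.668). All of these values include DRF ZT0 replicate 4, where F3 and Ly6a stood far above the rest. None is given without that library, so that the nearest genes of F3 and Ly6a may depend on it.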

How the data were processed

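VAT libraries of 56 mice were mapped and counted by the authors with HISAT2 2.0.5 and featureCounts 1.5.0-p3 on mm10, as the submitters' processing notes list. The deposited values, named TPM, are treated as a score: log2(CPM + 1) divided by exon length and rescaled per library. Reads and the effective library sizes behind CPM were recovered from the steps between low values, whole within 0.05 reads for 96.6% of genes with GENCODE exon lengths. For Pi16 the length came from the values (3987 bases against 6364). Gene Scd1 was left out of limma. The members, lists, motifs and named genes (all members, the 2 largest calls per list and comparison with a mean of at least 1 CPM, the 3 most similar genes) were chosen with earlier results of these data known.

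Rhythm was tested on the deposited values with JTK_CYCLE and with Lomb-Scargle, whose p-values were joined as Fisher proposed (numpy 2.4.6, scipy 1.17.1). Levels were tested with limma 3.58.1 in R 4.3.3 on log2(CPM + 1), which understates changes of low genes. The threshold was a Benjamini-Hochberg adjusted p of 0.05 over all genes. In simulated data of 2846 genes, limma recovered 200 of 200 changed means of 0.5 log2 units and 60 of 200 such changes at 1 time point. The simulation set the same spread between mice for every gene and adjusted over 2846 genes only. Its recovery need not hold for the members. The alternatives were other scalings, filters, pseudocounts, voom on the recovered reads and left-out libraries.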

Additional observations from a re-analysis of the deposited data

Results flagged for a closer look

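The rhythm differed between regimens by the limma interaction test in 4 of the 10 genes: Cd34 (adjusted p = 5.1e-08), Zfp423 (0.00153), Pdgfra (0.00716) and Icam1 (0.0128). The same test called 36% of all genes and 53.4% of those of at least 1 CPM, so that the count itself does not set these genes apart.

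In 9 of 140 groups of 4 mice, 1 mouse lay far from the others by Dixon's ratio, which chance does in about 1 of 20 groups. Under DRF, Ly6a stood at 296 CPM in ZT0 replicate 4, beside 80.0 to 91.5 in the others, and Dlk1 at 1.32 in ZT8 replicate 1, beside 3.99 to 4.06. These are the libraries that stood apart over all genes. Pdgfrb was 47.6 CPM in DRF ZT8 replicate 3, beside 90.3 to 98.3. The others were smaller: Ly6a at 85.3 CPM in DRF ZT16 replicate 4 (beside 95.1 to 96.1), Icam1 at 15.9 in DRF ZT24 replicate 1 (13.3 to 13.6), Cd34 at 153 in NRF ZT12 replicate 2 (178 to 179), Pi16 at 156 in NRF ZT4 replicate 4 (127 to 129), Dlk1 at 4.38 in NRF ZT8 replicate 2 (2.52 to 2.68) and Pdgfrb at 78.5 in NRF ZT8 replicate 1 (74.5 to 75.0).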

How the results depend on the processing

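For the number of members past the threshold, the pseudocount, the filter on CPM, median-of-ratios scaling, quantile normalization, voom and leaving out the 2 DRF libraries that stood apart moved no count by over 1.5 times. Lomb-Scargle alone called 0 members under NRF and 0 under DRF, against 2 and 2. At an unadjusted p under 0.05 it had 0 and 1 members, JTK_CYCLE alone called 3 and 2, and over all genes Lomb-Scargle alone called 0 in each regimen. Leaving out ZT24 reduced the DRF rhythms to 1 member (Cd34), and the limma test of a cosine raised them to 5 (Cd34, F3, Pdgfra, Zfp423 and Pi16). On the log2 of the deposited value plus 1, the time courses called under NRF fell from 4 to 2, and over all genes from 7151 to 5888 of 25938. Leaving out 1 library, or all 14 libraries of 1 replicate number, gave between 0 and 3 members with a rhythm under NRF, 0 and 4 under DRF, 2 and 8 with a difference in mean level, 3 and 5 with a difference in rhythm, 1 and 4 with a time course under NRF, 2 and 6 under DRF, and 8 to 12 calls at single time points. In mean level 3 members passed without replicates numbered 1 (Pdgfra, Zfp423 and Icam1), 2 without number 2 (Cd34 and Pdgfra) and 3 without number 3 (Cd34, Dpp4 and Pdgfra), while all-gene calls fell from 5631 to 4602, 3869 and 3815. Pdgfra passed in mean level and Cd34 and Zfp423 in rhythm difference without each replicate number. No difference called with all libraries changed sign under an alternative. Replicate numbers name different mice. Of 28 same-numbered pairs 8 correlated above 0.1 after removal of group means. Pairs of different numbers were not set beside them, so that a shared batch cannot be judged from this share. A fit with the replicate number as a block kept all counts of members (6 in mean level, 4 in rhythm difference, 4 and 4 in time course and 11 at single time points). Over all genes that fit called 5814 in mean level, against 5631, and 7908 in the DRF time course, against 7306. With the reference exon length, at which its reads are not whole, Pi16 would read 378 CPM per kb under NRF and 315 under DRF, above Ly6a. Depth limits Dlk1 most, at 37 to 207 reads per library. The simulated recovery at single time points is no rate for the members, whose spreads differ and which were tested over 25938 genes.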
